A study of Mus musculus with 28 samples.

Results

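Neural stem cells grown from adult mouse lung were compared with neural stem cells grown from mouse brain by poly-A RNA sequencing. The comparison comprised 2 samples of lung peripheral neural stem cells (lung pNSCs) and 2 samples of brain neural stem cells (brain NSCs) from the experiment on mice carrying a Nes-GFP transgene, taken by their labels, 4 of the 28 samples of the series. Nes-GFP places green fluorescent protein under regulatory elements of Nestin, the intermediate filament gene that is the usual marker of neural stem cells. The lung pNSCs came from mice of about 4 to 6 weeks: GFP+ lung cells were sorted, kept for 3 weeks on gelatin in a medium with EGF and bFGF (10 ng/ml of each), and clusters were then picked by hand and expanded, so that a line may go back to 1 cluster. The brain NSCs were plated from whole brain of adult or postnatal mice in the same medium and were not sorted. Both groups were therefore dividing cell lines without drug treatment, and differed in organ, sorting and picking at once. The labels give C57BL/6 as the strain, whereas the study's methods describe transgenic mice crossed to CD1 or CD1/C3H animals, and brain NSCs are said to come in most cases from the mice that gave the pNSCs. Whether that holds for these 4 samples is not given in the sources used here, and without it a genetic difference between the mice cannot be told apart from the organ. In lung the transgene also marks many cells that are not neural, and the sort alone does not make a cell neural. Further below, Sox2-GFP brain NSCs, Sox2-GFP lung pNSCs and Nes-GFP tail pNSCs are set beside these 4 samples. The Sox2-GFP lung pNSCs and the tail pNSCs came from mice of postnatal day 1 to 5.

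Neural stem cells divide in EGF and FGF, express Sox2 and Nestin, and can give rise to neurons, astrocytes and oligodendrocytes. In the embryo their position along the body is written in transcription factors: Otx genes and Nr2e1 in the forebrain, En and Irx genes in midbrain and hindbrain, Hox genes from hindbrain to tail, Pax3 and Pax7 dorsally and Nkx2-2 ventrally. Cultured neural stem cells keep part of this code. They also carry surface families whose members are chosen differently by each cell, of which the clustered protocadherins are the best known. The question of the comparison is therefore which families and pathways set lung-derived lines apart from brain-derived lines grown in the same medium.

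The 4 libraries held between 18009594 and 21402778 counted reads. A level of 3 counts, used here as the floor of detection, corresponded to 0.134 to 0.158 CPM (the reads of a gene scaled to the size of its library after TMM normalisation). The study calls the samples of a group biological replicates. Whether they were separate animals, separate lines or cultures of a single line is not given in the sources used here. The p-values therefore measure the spread between these samples. The 2 samples of a group lay close together. Their median absolute log2 ratio was 0.0634 in lung pNSCs (12127 genes) and 0.0715 in brain NSCs (12133 genes). The common coefficient of variation of the fit, beyond counting error, was 0.0258. SEs and p-values may thus hold little of the spread between lines or animals. A gene was called different when the adjusted p of edgeR's quasi-likelihood test was under 0.05 and the log2 fold change, lung pNSC minus brain NSC, was at least 1 in size. In these bulk samples, fewer cells of a type and less RNA per cell cannot be told apart.

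The label of neural stem cell was checked first. Of 25 NSC marker genes, 1 was at or under the floor in both lung pNSC samples and none in both brain NSC samples, and their summed level was 13465 to 13647 CPM in brain NSCs and 11091 to 11295 CPM in lung pNSCs, against 2238 to 2268 CPM in the uncultured lung cells of the same experiment. Of the 25, 3 (12%, against 8.71% of all genes tested) were called: Nr2e1 and Hopx lower, and Prom1 higher at levels under 1 CPM. Without the limit on the fold, 14 were lower and 8 higher at an adjusted p under 0.05, 22 of the 25, with a list median of -0.22. Nes itself was at 1339.7 and 1336 CPM in the brain NSC samples and at 786 and 769 CPM in the lung pNSC samples (log2 fold change -0.78), Vim, the intermediate filament vimentin, at 1815 and 1805 CPM in brain NSCs and at 1225 and 1218 CPM in lung pNSCs (-0.57) and Hes1, a Notch target, at 45.4 and 44.01 CPM in brain NSCs against 62.3 and 59.3 CPM in lung pNSCs (0.45). Of the 3 markers past no threshold, Hes5, a Notch target that keeps progenitors undifferentiated, was at 43.5 and 40.7 CPM in the brain NSC samples and at 39.6 and 38.8 CPM in the lung pNSC samples, and Cdh2, N-cadherin, was counted at 238 and 233 CPM in brain NSCs and at 227 and 224 CPM in lung pNSCs. Their adjusted p was 0.274 and 0.131 (edgeR).

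Markers of the cells that a lung gate could hold were low in both groups against lung cells, least so for pericyte and muscle markers. The 17 endothelial markers summed to 20.7 to 21.96 CPM in brain NSCs and 33.94 to 33.98 CPM in lung pNSCs, against 10017 to 10151 CPM in lung cells, and 4 of the 17 were at or under the floor in every NSC sample. The 16 leukocyte markers summed to 4.02 to 4.43 CPM and 3.84 to 4.48 CPM, with 8 at or under the floor. The 27 lung epithelial markers summed to 270 to 286 CPM and 378 to 381 CPM, with 19 at or under the floor. In that list Calca, described below, was counted in lung pNSCs and not in brain NSCs, and Abca3, a lipid transporter, was at 79.7 and 84.6 CPM in brain NSCs and at 101 and 108 CPM in lung pNSCs, while Sftpc, Scgb1a1 and Nkx2-1, which define alveolar and airway epithelium, were each at 0 in both lung pNSC samples. The 25 fibroblast and mesenchyme markers summed to 196 to 197 CPM and 353 to 360 CPM, against 9102 to 9258 CPM in lung cells, with 11 at or under the floor. The 19 pericyte, smooth muscle and skeletal muscle markers summed to 333 to 338 CPM in brain NSCs and 303 to 312 CPM in lung pNSCs. In lung cells they summed to 1399 to 1437 CPM, and 10 of the 19 were at or under the floor in every NSC sample. The part of these other cell types in the results below was not tested.

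Of 16948 genes tested, 1476 (8.71%) were called, 773 higher (4.56%) and 703 lower (4.15%) in lung pNSCs, and 6835 (40.3%) had an adjusted p under 0.05 whatever the fold, 18.7% higher and 21.6% lower. Among the 10654 genes with a mean of at least 5 CPM in either group, 618 (5.8%) were called. For 62.6% of the genes tested the samples of both groups did not overlap, so lack of overlap on its own separates few genes from the rest. Counts of each gene list are read against these shares. Many called members of the lists lie below 5 CPM, and a gene reached the test if it had enough reads in any group of the experiment. For a part of the lists the members at or above 5 CPM are therefore also counted separately.

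**Figure D1:**
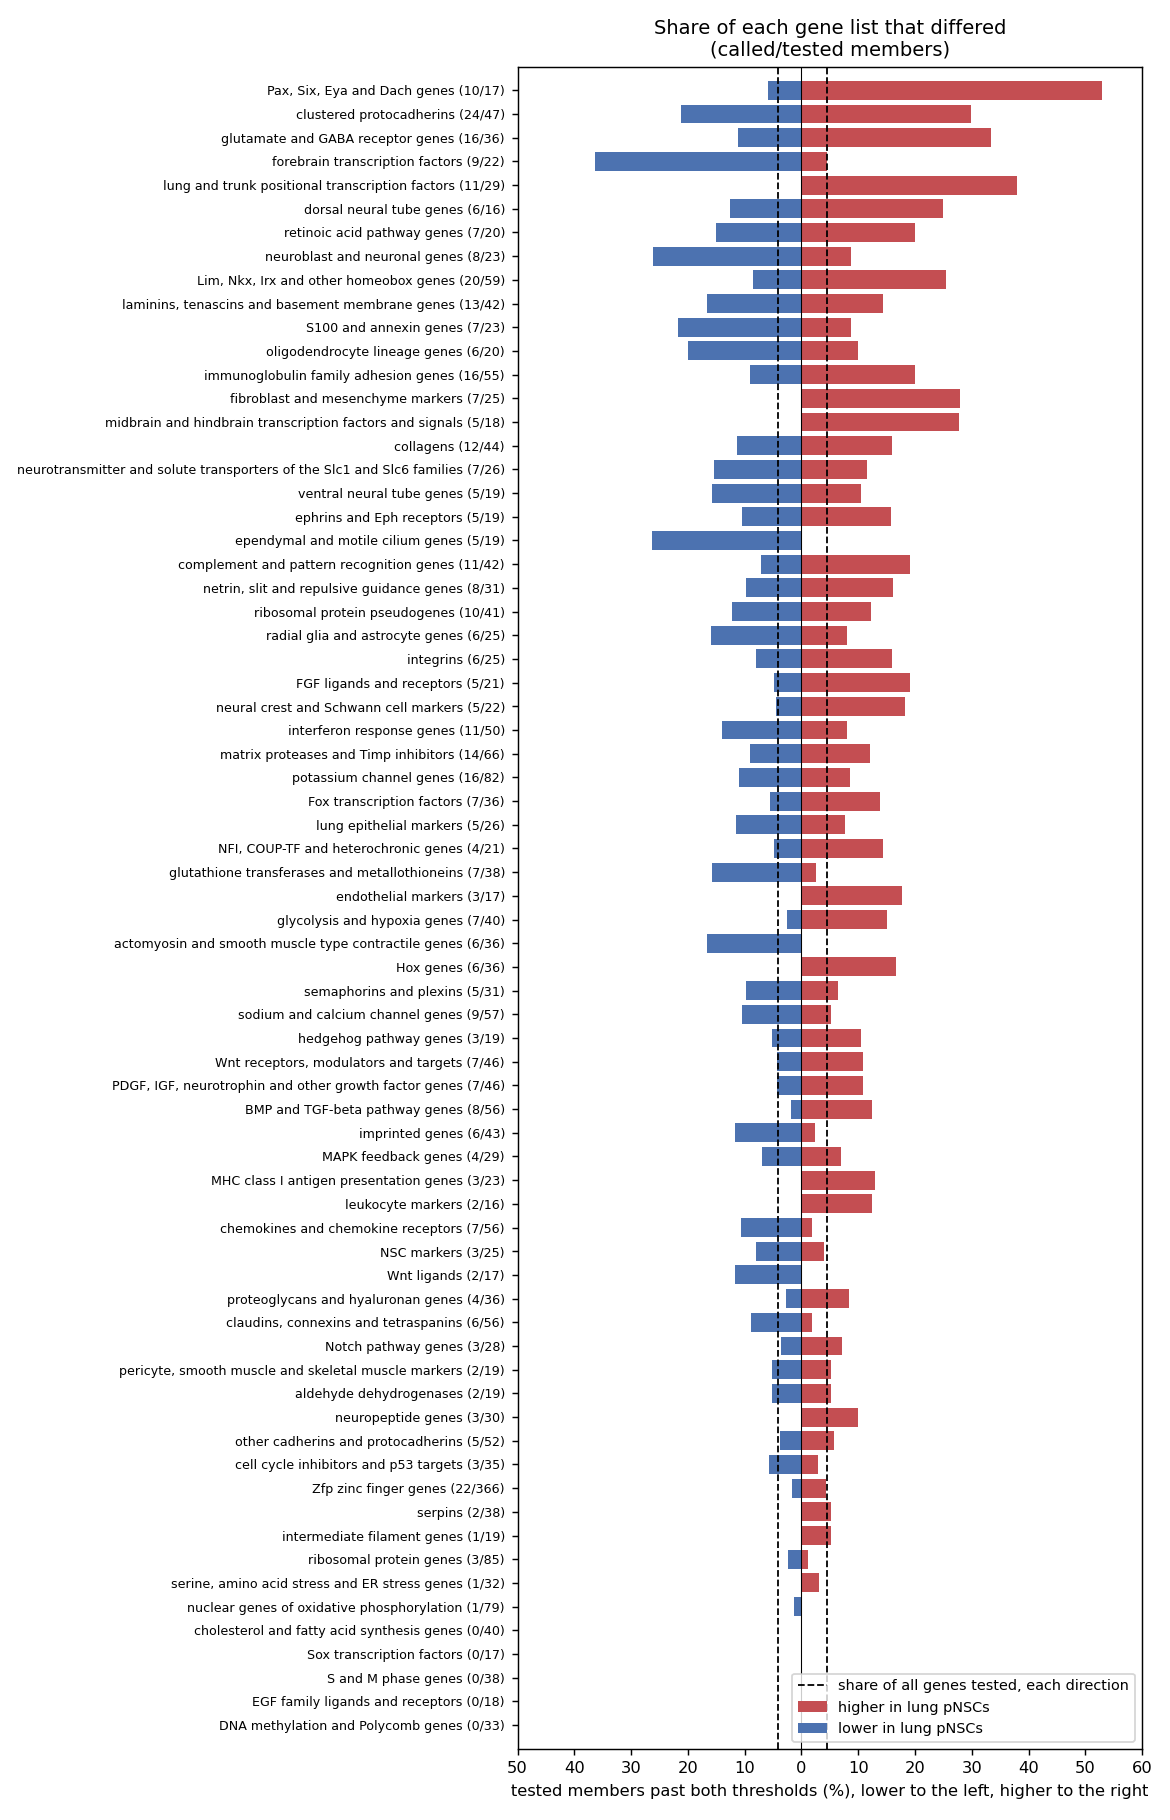
Share of the tested members of each gene list called lower (bars to the left) or higher (bars to the right) in lung pNSCs than in brain NSCs, in percent, for the 70 lists with at least 15 tested members. The dashed lines mark the shares over all genes tested, 4.15% lower and 4.56% higher. With both directions added, Pax, Eya, Dach and sine oculis homeobox genes and clustered protocadherins have the longest bars. Sox, EGF family, S and M phase, cholesterol and fatty acid, and DNA methylation and Polycomb genes have none.

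The largest rise was in Calca, which encodes calcitonin and the neuropeptide CGRP and in lung marks neuroendocrine cells. It lies at chromosome 7, 114631478 to 114636357, minus strand of GRCm38. No read was counted in either brain NSC sample, and the lung pNSC samples held 141 and 139 CPM. Against the floor of 3 counts per library the lung pNSC level was at least 987-fold higher. The uncultured lung cells held a mean of 0.256 CPM, and the other neuroendocrine or peptide genes did not follow as a group: of 30 tested neuropeptide genes, 3 were called, and the other called members, Penk and Pcsk1, held at most 1.12 CPM. The opposite case was Tagln2, transgelin-2, an actin-binding protein. It stood at 185 and 182 CPM in brain NSCs against 0.268 and 0.158 CPM in lung pNSCs, a fitted fold of 819 and a log2 fold change of -9.68 (SE 0.108).

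Because these genes were nearly off in one group, their promoter windows are shown, 300 bases from 250 before to 50 after the start site (RefSeq, GRCm38.p6), with each CG pair, the site of DNA methylation, in capitals. The Calca window (chr7:114636308-114636607, minus strand) holds 8 CG pairs and the Tagln2 window (chr1:172499996-172500295, plus strand) holds 18, where the median over all windows in the table is 7 and the quartiles are 3 and 20. Methylation was not measured in these files.
Calca: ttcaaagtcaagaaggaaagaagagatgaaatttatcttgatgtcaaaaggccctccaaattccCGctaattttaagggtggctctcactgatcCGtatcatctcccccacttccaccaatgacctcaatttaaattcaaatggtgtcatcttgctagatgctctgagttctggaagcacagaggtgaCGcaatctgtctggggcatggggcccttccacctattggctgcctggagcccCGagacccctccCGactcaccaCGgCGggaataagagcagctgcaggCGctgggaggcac
Tagln2: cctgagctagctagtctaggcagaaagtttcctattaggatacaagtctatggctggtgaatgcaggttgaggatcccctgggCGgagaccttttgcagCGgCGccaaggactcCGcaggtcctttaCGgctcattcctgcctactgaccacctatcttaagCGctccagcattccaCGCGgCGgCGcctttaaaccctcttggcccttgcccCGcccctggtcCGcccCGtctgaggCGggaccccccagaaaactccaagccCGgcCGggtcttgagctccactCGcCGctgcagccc

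Besides Calca, 5 genes were at or under the floor in both brain NSC samples and at 5 CPM or more in lung pNSCs: Pax3, Bcl11a, Mxra7, AC168977.1 and Rps15a-ps8. In the other direction 8 genes were so: Ddit4l, Zcchc12, Anxa2, Cacng6, Zfhx4, Rpl32l, 7530428D23Rik and AC165951.1. Bcl11a, a zinc finger transcription factor of cortical and sensory neurons, was counted at 7.90 and 9.53 CPM in the lung pNSC samples and at 0 in the brain NSC samples, at least 61.6-fold higher. Ddit4l, which inhibits mTOR signalling, was counted at 75.2 and 76.8 CPM in brain NSCs and at 0 and 0.0527 CPM in lung pNSCs. Zfhx4, a large zinc finger homeobox gene of the developing brain, was at least 34.4-fold lower in lung pNSCs. Rps15a-ps8, Rpl32l and Vcp-rs are copies of other genes, and their values depend on how reads shared with those genes were counted.

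**Figure D2:**
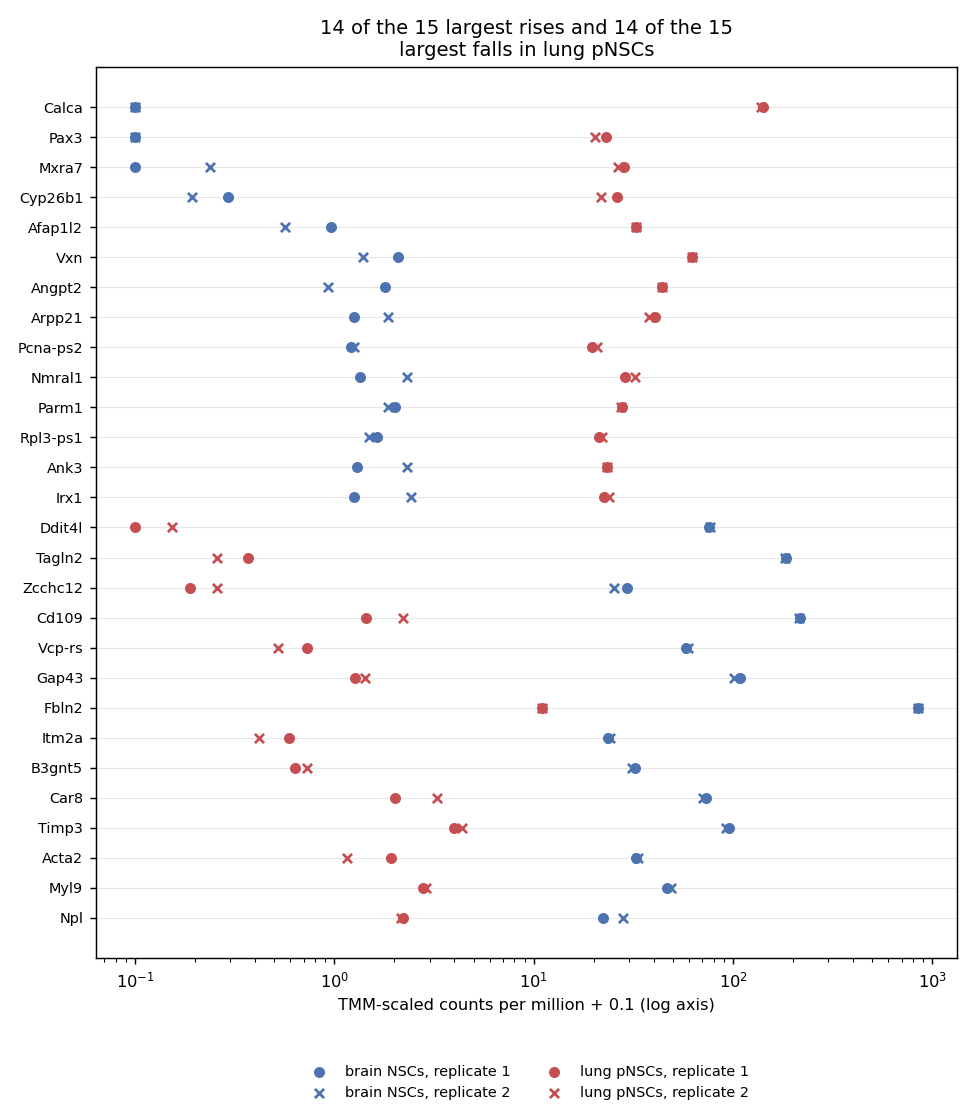
CPM + 0.1 on a log axis in each of the 2 brain NSC and 2 lung pNSC samples for 14 of the 15 largest rises and 14 of the 15 largest falls among genes with a mean of at least 20 CPM in the higher group. Calca heads the rises and Ddit4l the falls. Lack of overlap between the groups was a condition for entering the list, so it is no result for these 28 genes.

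Among the 15 largest falls were also secreted and surface proteins. Fbln2, fibulin-2, a glycoprotein of basement membranes, was at 844 and 849.7 CPM in the brain NSC samples and at 10.9 and 10.9 CPM in the lung pNSC samples. The log2 fold change of Fbln2 was -6.28 (SE 0.0471). Cd109, a membrane protein that binds TGF-beta, was counted at 218 and 213 CPM in brain NSCs and at 1.34 and 2.11 CPM in lung pNSCs. Its log2 fold change was -6.99 (SE 0.0769). Among the rises, Angpt2, a ligand of the Tek receptor, stood at 1.68 and 0.832 CPM in brain NSCs against 43.8 and 43.8 CPM in lung pNSCs, and Vxn, a regulator of neurogenesis, was at 1.97 and 1.29 CPM in the brain NSC samples and at 61.9 and 62.1 CPM in the lung pNSC samples. Angpt2 overlaps Mcph1 on the other strand, and Mcph1 was not called (26.6 and 29.1 CPM in brain NSCs, 22.4 and 21.8 CPM in lung pNSCs).

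Transcription factors of the forebrain were lower in lung pNSCs. Of 31 in the table, 22 were tested, 8 were called lower and 1 higher, and among the 9 with at least 5 CPM 6 were lower and none higher, with a median log2 fold change of -1.69. Otx2, needed for forebrain and midbrain to form, was counted at 2.93 and 2.59 CPM in brain NSCs and at 0 in both lung pNSC samples, at least 18.9-fold lower. Nr2e1, also called Tlx, which maintains adult forebrain neural stem cells, stood at 39.01 and 37.1 CPM in brain NSCs and at 4.33 and 4.90 CPM in lung pNSCs (log2 fold change -3.05, SE 0.122). Meis2, a cofactor of homeobox proteins in the striatal lineage, was counted at 72.1 and 68.9 CPM in brain NSCs against 18.3 and 16.8 CPM in lung pNSCs. Otx1, Dmrta2 and Gsx1 also fell, with log2 fold changes of -1.69, -1.36 and -2.71. Six3, an early forebrain and eye gene, was the exception at 1.64 and 1.29 CPM in brain NSCs and 2.81 and 3.58 CPM in lung pNSCs (log2 fold change 1.12, adjusted p 0.000831).

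Midbrain and hindbrain genes went the other way. Of 25 in the table, 18 were tested, 5 were called higher and none lower. En2, an engrailed gene of the midbrain and anterior hindbrain, stood at 19.2 and 18.7 CPM in the brain NSC samples and at 56.1 and 53.4 CPM in the lung pNSC samples (log2 fold change 1.53, SE 0.0832). Irx1, an Iroquois homeobox gene, was at 1.15 and 2.31 CPM in brain NSCs and at 22.5 and 23.8 CPM in lung pNSCs (log2 fold change 3.72, SE 0.143). Pou4f1, a POU factor of sensory and midbrain neurons, was counted at 0.962 and 1.48 CPM in brain NSCs against 7.64 and 5.64 CPM in lung pNSCs, and Lmx1b, which specifies monoamine neurons, at 1.92 and 2.59 CPM in the brain NSC samples and at 7.01 and 6.74 CPM in the lung pNSC samples. In each of these 4 genes both lung pNSC samples were above both brain NSC samples. Lack of overlap, in whichever direction, was seen for 62.6% of all genes tested. The Hox genes, which mark hindbrain and trunk levels, were mostly silent in both groups: 29 of 39 were at or under the floor in all 4 samples. Of the 36 tested, 6 were called higher and none lower, and 3 reached 5 CPM. Hoxa3 stood at 5.92 and 6.66 CPM in brain NSCs and at 24.97 and 25.2 CPM in lung pNSCs, and Hoxa5 was at 14.3 and 16.5 CPM in brain NSCs against 31.9 and 32.4 CPM in lung pNSCs. Both were thus counted in the brain NSC samples too, and rose, with fitted folds of 3.98 and 2.08. Hoxd8 and Hoxa10 were at 0 in brain NSCs, and at 1.34 and 1.69 CPM and 0.715 and 0.632 CPM in lung pNSCs. Hoxa3 and Hoxa5 overlap each other and antisense transcripts, so their reads may be shared.

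**Figure D3:**
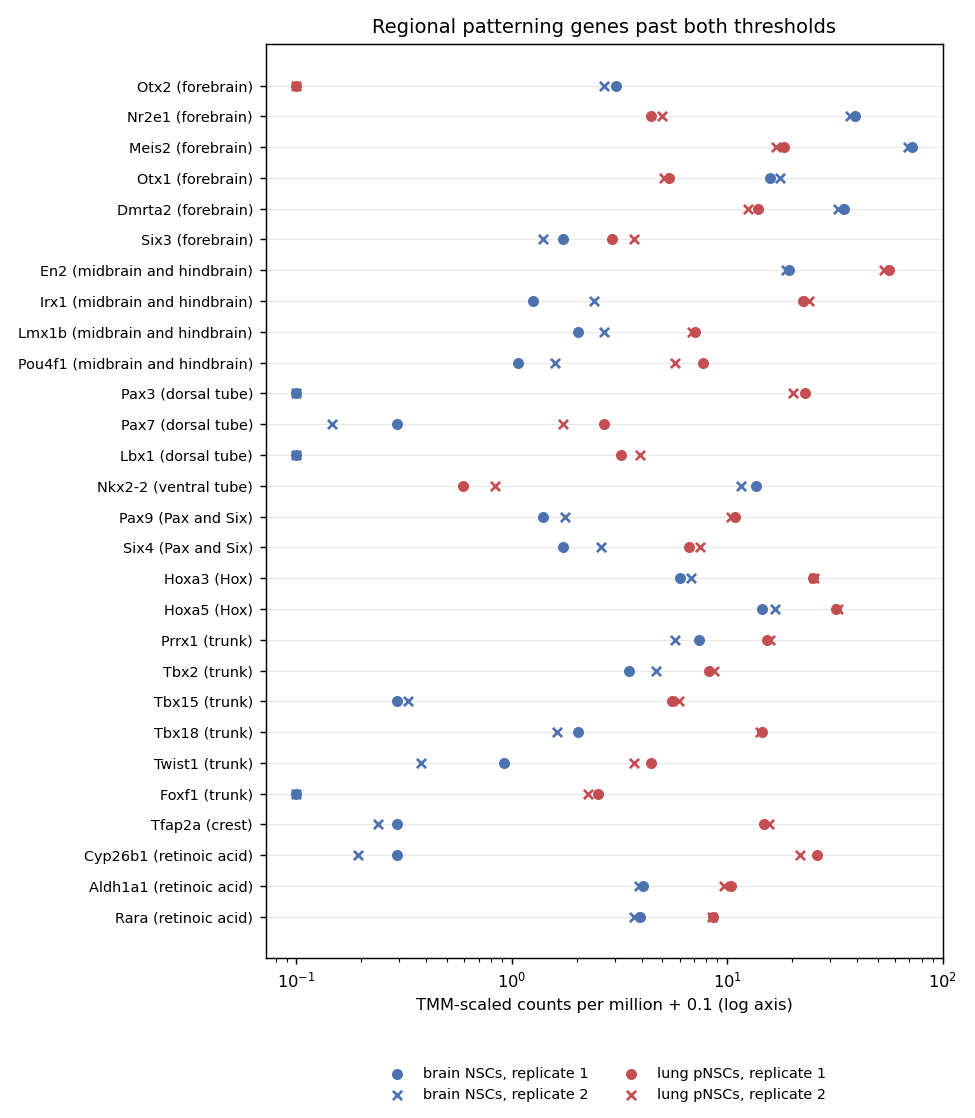
CPM + 0.1 on a log axis in each brain NSC and lung pNSC sample for 28 positional transcription factors and signals. Forebrain genes such as Otx2 and Nr2e1 lie to the left in lung pNSCs, and Pax3, Tfap2a, Irx1 and Tbx15 lie to the right.

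The Pax, Eya and Dach genes and the sine oculis homeobox family, which act together in eye, ear, muscle and neural tube, were mostly higher among those called. Of 21 in the table, 17 were tested, 9 were called higher and 1 lower (8 called in all by DESeq2), and among the 10 with at least 5 CPM the counts were 4 higher and 1 lower. Pax3, which marks the dorsal neural tube and the neural crest, lies at chromosome 1, 78101267 to 78197134, minus strand. It was at 0 in both brain NSC samples and at 22.9 and 20.2 CPM in lung pNSCs, at least 152-fold higher. Pax9, known from thymus, skeleton and teeth, was counted at 1.30 and 1.66 CPM in the brain NSC samples and at 10.8 and 10.3 CPM in the lung pNSC samples (log2 fold change 2.82, SE 0.195). Eya2, a phosphatase and transcriptional cofactor, went the other way, at 13.3 and 13.5 CPM in brain NSCs and at 1.52 and 2.11 CPM in lung pNSCs (log2 fold change -2.90, SE 0.161). Pax6, the Pax gene of most forebrain progenitors, was not called, at a log2 fold change of -0.18. Of the dorsal neural tube list, Lbx1, a factor of dorsal spinal interneurons, was at 0 in brain NSCs and at 3.13 and 3.85 CPM in lung pNSCs, at least 24.6-fold higher. Of the ventral list, Nkx2-2 stood at 13.5 and 11.5 CPM in brain NSCs against 0.491 and 0.738 CPM in lung pNSCs (log2 fold change -4.35, SE 0.247), whereas Olig2, which shares its domain, was not called at a log2 fold change of 0.15.

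Positional factors of lung and trunk mesenchyme were higher in lung pNSCs in 11 of 29 tested, with none lower, and among the 6 with at least 5 CPM 4 were higher. Tbx18 was at 1.92 and 1.53 CPM in the brain NSC samples and at 14.3 and 14.1 CPM in the lung pNSC samples, and Tbx15 was counted at 0.192 and 0.231 CPM in brain NSCs and at 5.45 and 5.85 CPM in lung pNSCs, both T-box genes of trunk mesoderm (log2 fold changes 3.04 and 4.69). Foxf1, a factor of lung mesenchyme, and Tbx3 were at 0 in brain NSCs and at 2.41 and 2.16 CPM and 2.95 and 1.90 CPM in lung pNSCs, bounds of at least 16.2-fold and 17.1-fold. In lung cells Foxf1 averaged 253 CPM and Tbx3 234 CPM, far above lung pNSCs, while Tbx18 averaged 0.699 CPM, below them. The fibroblast marker sum given above was likewise higher in lung pNSCs than in brain NSCs. Nkx2-1, which defines lung endoderm, averaged 226 CPM in lung cells and was at 0 in all 4 NSC samples. Retinoic acid, the signal that posteriorises the neural tube, is broken down by Cyp26b1. This gene stood at 0.192 and 0.0925 CPM in brain NSCs against 26.04 and 21.7 CPM in lung pNSCs, and rose by a log2 fold change of 7.34 (SE 0.209, adjusted p 2.83e-265). The brain NSC samples held 4 and 2 reads of it. Aldh1a1, which makes retinoic acid, and Rara, one of its receptors, also rose (1.36 and 1.17), while Rarb fell (-1.77). Of the 20 tested genes of the pathway, 4 were called higher and 3 lower.

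Neural crest and Schwann cell markers did not move in 1 direction: 4 of 22 tested were called higher and 1 lower, and the list summed to 1117 to 1167 CPM in brain NSCs and 673 to 687 CPM in lung pNSCs. Tfap2a, a transcription factor of neural crest and surface ectoderm, was at 0.192 and 0.139 CPM in the brain NSC samples and at 14.7 and 15.4 CPM in the lung pNSC samples (log2 fold change 6.46, SE 0.260). Sox10, which defines the crest and its glia, held at most 0.105 CPM in any of the 4 samples. Ngfr, the p75 receptor of crest stem cells, held 0.385 and 0.185 CPM in brain NSCs and 0.402 and 0.579 CPM in lung pNSCs and was not called. Gap43, a growth cone protein that is on this list and on the neuronal list, was counted at 108 and 101 CPM in brain NSCs and at 1.16 and 1.32 CPM in lung pNSCs (log2 fold change -6.40, SE 0.116). Sensory neuron markers were called higher in 3 of 11 tested, Calca, Pou4f1 and Gata3, and 13 of 20 were at or under the floor in all 4 samples.

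Genes of the neuronal, astrocytic and oligodendrocytic lineages differed gene by gene. Of 23 tested neuroblast and neuronal genes, 6 were called lower and 2 higher. Tubb3, the neuronal tubulin, stood at 13.9 and 15.2 CPM in brain NSCs against 5.27 and 5.85 CPM in lung pNSCs, and Gad1, which makes GABA, was at 4.28 and 5.87 CPM in the brain NSC samples and at 12.6 and 13.96 CPM in the lung pNSC samples, so that the first fell (-1.39) and the second rose (1.38). Of 25 radial glia and astrocyte genes, 4 were lower and 2 higher. Aldh1l1, a folate enzyme used as an astrocyte marker, was counted at 73.4 and 76.5 CPM in brain NSCs and at 11.7 and 9.01 CPM in lung pNSCs (log2 fold change -2.84, SE 0.0838). Fgfr3, an FGF receptor of glial progenitors, stood at 267 and 273 CPM in brain NSCs against 127 and 133 CPM in lung pNSCs. Sparcl1, also called hevin, a secreted protein of astrocytes, was at 161 and 159 CPM in the brain NSC samples and at 1188 and 1161 CPM in the lung pNSC samples (log2 fold change 2.88, SE 0.0334). Its 2 lung pNSC samples were thus above both brain NSC samples, against the direction of Aldh1l1. Among 20 tested oligodendrocyte genes, 4 were lower and 2 higher. Gpr17, a receptor of committed precursors, was counted at 25.3 and 24.2 CPM in brain NSCs and at 3.30 and 3.06 CPM in lung pNSCs, and Bcas1, expressed as myelination begins, stood at 62.2 and 59.8 CPM in brain NSCs against 179 and 167 CPM in lung pNSCs. Of 19 ependymal and cilium genes 5 were lower and none higher, but the count was 3 by DESeq2, 3 without brain NSC sample 1 or lung pNSC sample 1 and 2 without lung pNSC sample 2, and only Foxj1, the master factor of motile cilia, exceeded 5 CPM among those called, at 53.7 and 57.6 CPM in the brain NSC samples and at 22.02 and 19.6 CPM in the lung pNSC samples.

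The clustered protocadherins lie in 3 adjoining clusters on chromosome 18, encode cadherin-like surface proteins, and are chosen at random from their own promoters in single neurons, giving each cell a surface identity. Of 57 in the table, 47 were tested, and 14 were called higher and 10 lower in lung pNSCs, against 4.56% and 4.15% over all genes. Among the 27 with at least 5 CPM, 10 were higher and 7 lower. Pcdhgb4 was at 18.6 and 16.3 CPM in brain NSCs and at 0.313 and 0.790 CPM in lung pNSCs (log2 fold change -5.01, SE 0.220). Pcdhga12 did the reverse, at 0.529 and 0.324 CPM in brain NSCs against 10.05 and 9.01 CPM in lung pNSCs (4.47, SE 0.268). In the beta cluster Pcdhb4 was counted at 3.32 and 3.19 CPM in the brain NSC samples and at 25.9 and 24.7 CPM in the lung pNSC samples, and Pcdhb14 stood at 18.04 and 17.2 CPM in brain NSCs and at 5.23 and 4.74 CPM in lung pNSCs. Members therefore moved both ways within the beta and the gamma cluster. The samples of the groups did not overlap in each gene named here, as for 62.6% of all genes tested. Of the alpha cluster, Pcdha9 was called higher (2.99 and 2.27 CPM in lung pNSCs) and Pcdhac2 lower (6.57 and 7.53 CPM against 17.99 and 18.2 CPM). Genes of the alpha and gamma clusters share their last exons, so a count credited to a member depends on how such shared reads were assigned, which is not given in the sources used here.

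**Figure D4:**
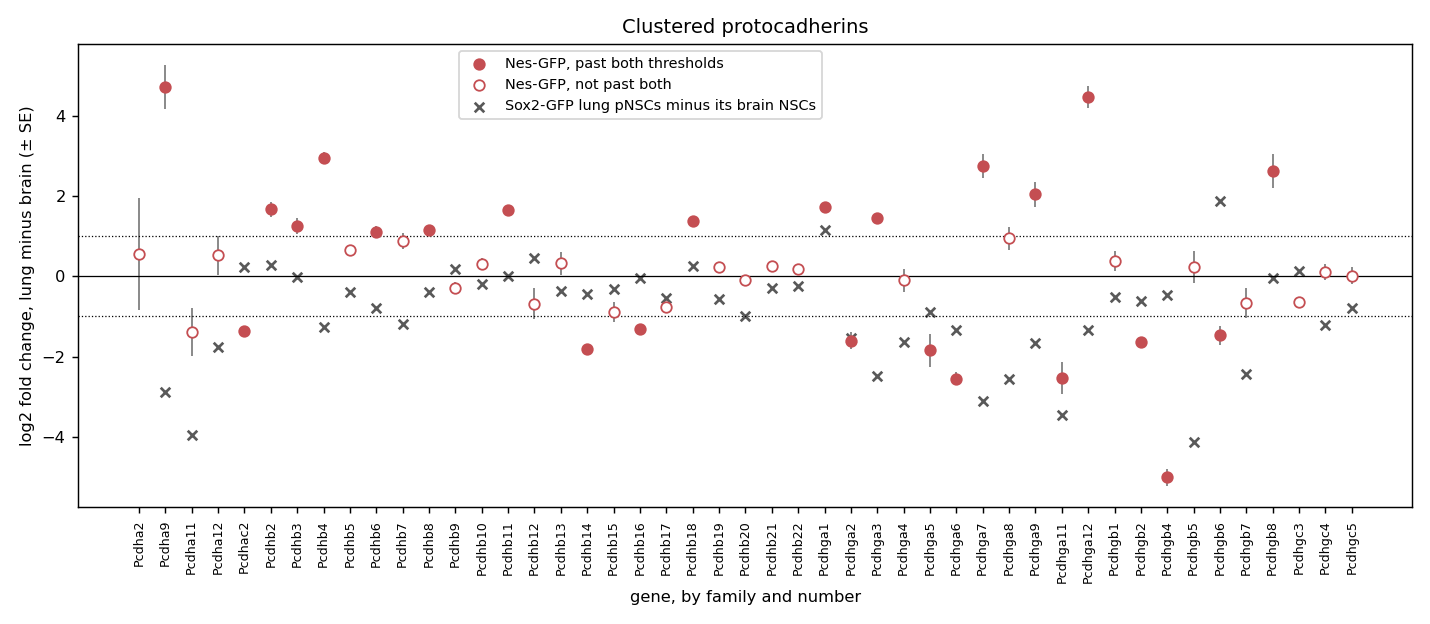
Log2 fold change, lung pNSC minus brain NSC, with its standard error for the 47 tested clustered protocadherins, ordered by cluster (filled points are called, crosses are the Sox2-GFP lines). Points scatter on both sides of 0 from Pcdhgb4 at -5.01 to Pcdha9 at 4.72, and the crosses of the Sox2-GFP lines lie apart from many of them.

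Other adhesion families also held called members. Of 55 tested genes of the immunoglobulin family, 11 were called higher and 5 lower, and of the 36 with at least 5 CPM 7 were higher and 2 lower. Igsf10 was at 10.97 and 10.9 CPM in brain NSCs against 89.9 and 93.8 CPM in lung pNSCs (log2 fold change 3.07, SE 0.0696). Nfasc, neurofascin of the axon initial segment and node, was counted at 11.1 and 9.89 CPM in the brain NSC samples and at 36.6 and 38.5 CPM in the lung pNSC samples. Cntn1, contactin-1, stood at 119 and 109 CPM in brain NSCs and at 286 and 279.6 CPM in lung pNSCs, and Cntn4 rose from 2.21 and 1.94 CPM to 14.1 and 13.7 CPM. Ntm, neurotrimin, fell, at 79.9 and 76.6 CPM in brain NSCs against 31.6 and 31.8 CPM in lung pNSCs. Among the other cadherins 3 of 52 were higher and 2 lower, 9.62% called and so near the 8.71% of all genes tested. Of these, Pcdh17 was at 15.7 and 13.8 CPM in the brain NSC samples and at 61.1 and 62.9 CPM in the lung pNSC samples. Cdh22 was at 72.96 and 72.8 CPM in brain NSCs and at 21.1 and 18.1 CPM in lung pNSCs. Axon guidance genes were split as well. Epha4, an ephrin receptor that repels axons, was counted at 18.3 and 19.7 CPM in brain NSCs against 102 and 106 CPM in lung pNSCs (log2 fold change 2.46, SE 0.0656), whereas Plxnb3, a semaphorin receptor of oligodendrocytes, stood at 128 and 140.3 CPM in the brain NSC samples and at 53.01 and 52.9 CPM in the lung pNSC samples. Of 19 tested ephrin and Eph genes 3 were higher and 2 lower, of 31 semaphorins and plexins 2 and 3, and of 31 netrin, slit and related genes 5 and 3. With at least 5 CPM these counts were 2 and 0 of 12, 1 and 3 of 22, and 1 and 3 of 18. At that level 5.8% of all genes were called.

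Receptors for glutamate and GABA, the main excitatory and inhibitory transmitters, were higher in lung pNSCs in 12 of 36 tested and lower in 4, and among the 20 with at least 5 CPM in 8 and 2. Gria4, an AMPA receptor subunit, was counted at 157 and 152 CPM in brain NSCs and at 358 and 347 CPM in lung pNSCs. Grin3a, an NMDA receptor subunit that lowers calcium entry, stood at 61.4 and 55.01 CPM in brain NSCs against 172 and 175 CPM in lung pNSCs. Gabra2, a GABA-A receptor subunit, was at 25.3 and 24.3 CPM in the brain NSC samples and at 60.9 and 64.2 CPM in the lung pNSC samples. These 3 were already well expressed in brain NSCs and rose by log2 fold changes of 1.19, 1.58 and 1.33. Gria3 and Grin2b fell, with 78.9 and 76.05 and 11.5 and 14.2 CPM in brain NSCs and 34.2 and 37.6 and 3.84 and 3.48 CPM in lung pNSCs.

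Transporters that clear these transmitters changed in opposite directions. Slc1a2, the main glutamate transporter of astrocytes (GLT-1), was counted at 199.9 and 193 CPM in brain NSCs and at 667 and 668 CPM in lung pNSCs (log2 fold change 1.76, SE 0.0337). Slc6a11, the GABA transporter GAT-3, stood at 631 and 627 CPM in brain NSCs against 147 and 147 CPM in lung pNSCs (-2.10, SE 0.0352). Slc6a9, the glycine transporter GlyT1, was at 105 and 104 CPM in the brain NSC samples and at 46.8 and 40.5 CPM in the lung pNSC samples (-1.26). In each of the 3 the groups did not overlap, as for 62.6% of all genes tested. Over the Slc1 and Slc6 families, 3 of 26 tested were called higher and 4 lower.

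Genes of the extracellular matrix changed in both directions. Of 44 collagens tested, 7 were higher and 5 lower, but among the 12 with at least 5 CPM 3 were higher and none lower: Col11a1 was counted at 51.5 and 46.1 CPM in brain NSCs and at 145 and 141 CPM in lung pNSCs, Col5a1 at 23.3 and 19.8 CPM in brain NSCs against 51.1 and 46.1 CPM in lung pNSCs and Col28a1 at 1.68 and 1.39 CPM in the brain NSC samples and at 5.31 and 6.27 CPM in the lung pNSC samples. Col11a1 and Col5a1 are fibril-forming chains. Of 42 genes for laminins, tenascins and basement membranes 6 were higher and 7 lower. Matn2, matrilin-2, stood at 10.7 and 8.88 CPM in brain NSCs and at 126 and 131 CPM in lung pNSCs (log2 fold change 3.71, SE 0.0631). Fn1, fibronectin, was at 59.2 and 62.7 CPM in brain NSCs against 139.7 and 146 CPM in lung pNSCs. Lama4, a laminin chain of vessels and nerve sheath, was counted at 32.9 and 35.00 CPM in the brain NSC samples and at 4.87 and 4.79 CPM in the lung pNSC samples, which was lower in both lung pNSC samples (-2.81). Among 66 tested matrix proteases and Timp inhibitors 8 were higher and 6 lower, with 7 and 1 among the 28 at 5 CPM or more. Mmp14, a membrane-bound metalloprotease, stood at 2.93 and 2.17 CPM in brain NSCs and at 32.2 and 30.9 CPM in lung pNSCs, and Timp3, which inhibits metalloproteases, was at 95.6 and 91.7 CPM in brain NSCs against 3.89 and 4.27 CPM in lung pNSCs. The protease thus rose (3.63, SE 0.104) and the inhibitor fell (-4.52, SE 0.0748). Timp3 overlaps Syn3 on the other strand, which stood at 2.22 CPM or less in the 4 samples. Of 25 integrins, the matrix receptors, 4 were higher and 2 lower. Itga9 was counted at 1.83 and 2.40 CPM in the brain NSC samples and at 15.4 and 17.3 CPM in the lung pNSC samples, Itga1 at 11.4 and 11.6 CPM in brain NSCs and at 39.2 and 38.4 CPM in lung pNSCs and Itga4 at 13.5 and 11.8 CPM in brain NSCs against 39.4 and 40.4 CPM in lung pNSCs, all higher, while Itga7, a laminin receptor, was lower at 5.15 and 5.55 CPM in the brain NSC samples and at 0.447 and 0.211 CPM in the lung pNSC samples.

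Contractile genes of the actomyosin system were lower or not called. Of 36 tested, 6 were called lower and none higher, and 20 were lower with an adjusted p under 0.05 and no limit on the fold, against 21.6% of all genes tested. Besides Tagln2, Acta2, smooth muscle actin, stood at 32.4 and 33.1 CPM in brain NSCs and at 1.83 and 1.05 CPM in lung pNSCs (log2 fold change -4.47, SE 0.121). Myl9, a myosin light chain, was at 46.5 and 48.8 CPM in brain NSCs against 2.68 and 2.79 CPM in lung pNSCs (-4.12, SE 0.108). Actc1, cardiac actin, was counted at 9.38 and 8.14 CPM in the brain NSC samples and at 4.02 and 4.37 CPM in the lung pNSC samples, and Cnn2, calponin-2, at 40.4 and 43.3 CPM in brain NSCs and at 21.3 and 20.5 CPM in lung pNSCs, the latter at the threshold itself (fitted fold 2.00). All of these were lower in both lung pNSC samples, and Srf, the factor that drives many of them, was not called (-0.16). Of the annexins and S100 proteins, which bind membranes and calcium, 5 of 23 were lower and 2 higher. Anxa2 stood at 14.96 and 17.4 CPM in brain NSCs against 0.0893 and 0.105 CPM in lung pNSCs, and S100a10, the partner of Anxa2, at 32.5 and 33.2 CPM in the brain NSC samples and at 8.49 and 8.96 CPM in the lung pNSC samples. Both fell, the first to 2 reads in each lung pNSC sample.

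The SRF protein binds the CArG box, a motif of CC, 6 bases that are each A or T, and GG. It was looked for in the promoter windows of the actomyosin genes because 6 of them were called lower. Of the 6 lower genes with a window, 3 hold it (Actc1, Myl9 and Cnn2), and of the 25 genes not called 5 do (Acta1, Actg1, Myl6, Srf and Vcl). Over all 32851 windows of this length the share is 1.63%. The motif reads the same on both strands, so that each match was counted once. The 3 windows are printed with the CArG box in capitals, Actc1 from chr2:114052826-114053125 (minus strand), Myl9 from chr2:156775214-156775513 (plus strand) and Cnn2 from chr10:79988350-79988649 (plus strand), GRCm38.p6. The match is a description of the sequence, and binding was not measured.
Actc1: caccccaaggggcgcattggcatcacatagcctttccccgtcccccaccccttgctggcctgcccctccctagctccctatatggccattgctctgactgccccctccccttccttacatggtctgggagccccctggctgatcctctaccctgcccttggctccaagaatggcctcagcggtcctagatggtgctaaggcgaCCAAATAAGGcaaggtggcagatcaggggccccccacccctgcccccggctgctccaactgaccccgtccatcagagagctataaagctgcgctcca
Myl9: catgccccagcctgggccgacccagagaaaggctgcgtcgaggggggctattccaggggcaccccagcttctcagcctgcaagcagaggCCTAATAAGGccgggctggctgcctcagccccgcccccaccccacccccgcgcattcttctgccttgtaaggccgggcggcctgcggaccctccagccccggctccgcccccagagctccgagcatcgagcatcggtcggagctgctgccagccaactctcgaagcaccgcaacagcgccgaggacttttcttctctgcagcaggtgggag
Cnn2: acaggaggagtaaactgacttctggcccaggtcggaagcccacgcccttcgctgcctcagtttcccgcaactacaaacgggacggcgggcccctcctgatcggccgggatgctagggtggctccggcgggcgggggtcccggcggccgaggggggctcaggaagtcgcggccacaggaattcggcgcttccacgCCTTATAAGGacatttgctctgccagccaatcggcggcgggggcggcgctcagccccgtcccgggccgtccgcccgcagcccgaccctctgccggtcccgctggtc

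Signalling families differed in a few members each. Of 56 tested genes of the BMP and TGF-beta pathway, 7 were higher and 1 lower, 14.3% against 8.71% of all genes tested. Among the 28 with at least 5 CPM 3 were higher and 1 lower, so most of the rises were in genes under that level. Ltbp1, which holds latent TGF-beta in the matrix, was at 6.49 and 6.66 CPM in brain NSCs and at 69.1 and 75.1 CPM in lung pNSCs (log2 fold change 3.45, SE 0.0764), and the ligand Tgfb2 was counted at 24.00 and 23.3 CPM in brain NSCs against 77.6 and 80.1 CPM in lung pNSCs (1.73). Of the targets, Id2 rose (19.2 and 15.7 to 55.5 and 53.4 CPM) and Id4 fell (15.2 and 13.04 to 4.64 and 4.11 CPM). Among 46 Wnt receptors, modulators and targets 5 were higher and 2 lower, and among 17 ligands 2 were lower. With at least 5 CPM the counts were 4 and 1 of 27, and 1 lower of 4 ligands. Wnt7b, a ligand of the developing forebrain and lung, stood at 152 and 159 CPM in the brain NSC samples and at 47.03 and 43.8 CPM in the lung pNSC samples (-1.77, SE 0.0494). Lgr5, a receptor for R-spondins, was at 27.2 and 26.6 CPM in brain NSCs and at 84.5 and 87.8 CPM in lung pNSCs, and Rnf43, which removes Wnt receptors, at 0.770 and 1.48 CPM in brain NSCs against 8.93 and 7.74 CPM in lung pNSCs, and Wif1, a secreted inhibitor, at 0.721 and 0.462 CPM in the brain NSC samples and at 6.74 and 7.01 CPM in the lung pNSC samples. These 3 were higher in both lung pNSC samples. Of 21 FGF genes 4 were higher and 1 lower, and of the 9 with at least 5 CPM 3 and 1. Fgf1 was counted at 45.4 and 42.99 CPM in brain NSCs and at 178 and 180.0 CPM in lung pNSCs, and Fgf12 rose as well (1.26), while Fgfr3 fell. Dusp4, which shuts off MAP kinases, stood at 6.83 and 6.80 CPM in brain NSCs against 42.2 and 39.5 CPM in lung pNSCs. Of 29 MAP kinase feedback genes 2 were higher and 2 lower. Among the 24 with at least 5 CPM Dusp4 alone was called, 4.17% against 5.8% of all genes at that level. Of other growth factor genes, Igfbp4, an IGF-binding protein, was at 153 and 160.5 CPM in the brain NSC samples and at 689.7 and 679 CPM in the lung pNSC samples (2.12, SE 0.0347), Vegfa at 24.8 and 26.5 CPM in brain NSCs and at 60.5 and 59.5 CPM in lung pNSCs and Pdgfd at 0.481 and 0.185 CPM in brain NSCs against 8.71 and 8.06 CPM in lung pNSCs. In the Notch pathway Jag1, a ligand, was the only called member above 5 CPM, at 29.4 and 30.4 CPM in the brain NSC samples and at 66.6 and 62.3 CPM in the lung pNSC samples. No EGF family gene was called of 18 tested by edgeR or by DESeq2, although 13 had an unadjusted p under 0.05 in edgeR and 1 was called without brain NSC sample 2 or lung pNSC sample 1.

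Genes of innate immunity were low in both groups, with some large relative changes. Of 42 tested complement and pattern recognition genes 8 were higher and 3 lower, and of the 10 with at least 5 CPM 4 were higher. Tlr4, the receptor for lipopolysaccharide, was counted at 0.144 and 0.185 CPM in brain NSCs and at 10.2 and 10.5 CPM in lung pNSCs, and Tlr6 stood at 0.0962 and 0.185 CPM in brain NSCs against 8.13 and 5.90 CPM in lung pNSCs (log2 fold changes 5.92 and 5.58). Tlr3, the receptor for double-stranded RNA, was at 30.1 and 25.7 CPM in the brain NSC samples and at 83.4 and 79.7 CPM in the lung pNSC samples (1.55, SE 0.0664). All 3 were higher in both lung pNSC samples. Interferon response genes did not move one way, 4 of 50 higher and 7 lower. Ifitm3 was counted at 1.44 and 1.94 CPM in brain NSCs and at 13.8 and 13.1 CPM in lung pNSCs and Tmem173, the STING adaptor, at 13.2 and 12.5 CPM in brain NSCs against 38.4 and 40.7 CPM in lung pNSCs, whereas Gbp7, a guanylate-binding protein, stood at 18.7 and 16.8 CPM in the brain NSC samples and at 2.81 and 3.48 CPM in the lung pNSC samples. Of 56 tested chemokine genes 1 was higher, Cxcl14 at 2.65 and 3.19 CPM in brain NSCs and at 16.9 and 16.9 CPM in lung pNSCs, and 6 lower, of which Ackr3, a scavenging receptor of Cxcl12, was at 6.35 and 6.01 CPM in brain NSCs against 0.715 and 1.05 CPM in lung pNSCs. The called share was 12.5%, against 8.71% of all genes tested. Among the 10 with at least 5 CPM 1 was higher and 1 lower.

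In families that carry growth and basic metabolism most differences were under the limit on the fold. No gene was called by edgeR or by DESeq2 among 38 S and M phase genes, 40 genes of cholesterol and fatty acid synthesis, 17 Sox factors and 33 DNA methylation and Polycomb genes. Unadjusted p values under 0.05 in edgeR were nevertheless found for 22, 31, 14 and 19 of these. With 1 sample left out, 1 Sox factor was called without lung pNSC sample 1, and 1 cholesterol or fatty acid gene without brain NSC sample 1, brain NSC sample 2 or lung pNSC sample 2. Of the 40 cholesterol and fatty acid genes 27 were lower with an adjusted p under 0.05 and a list median of -0.21, and 56 of 85 ribosomal protein genes were lower in the same way with a median of -0.17. Of 79 nuclear genes of oxidative phosphorylation 1 was called (2 without brain NSC sample 2), and 26 were higher with an adjusted p under 0.05 alone, with a median of 0.07. Of 40 glycolysis and hypoxia genes 6 were called higher and 1 lower, the latter Ddit4l, and Adm, a vasodilator peptide induced by hypoxia, was the only higher one above 5 CPM, at 12.7 and 11.97 CPM in brain NSCs and 32.9 and 31.8 CPM in lung pNSCs. The 7 calls became 4 by DESeq2 or without brain NSC sample 1, and 3 without brain NSC sample 2 or lung pNSC sample 2. At an adjusted p under 0.05 alone 25 of the 40 were higher (18.7% of all genes tested were) and 5 lower, with a list median of 0.31.

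The study holds an independent lung and brain pair, from Sox2-GFP mice: 3 samples of lung pNSCs from postnatal day 1 to 5 and 3 samples of brain NSCs, which share no sample with the Nes-GFP lines. Over the 14043 genes tested in both experiments together, the lung minus brain difference itself differed between the experiments for 2371 (16.9%), 1432 with a positive interaction (10.2%) and 939 with a negative one (6.69%). The Sox2-GFP lines on their own gave 851 higher (6.06%) and 1432 lower (10.2%) genes. Of 707 genes higher in Nes-GFP lung pNSCs and tested in both, 166 were also higher in Sox2-GFP lung pNSCs, 23.5% of the first set and 19.8% of the 838 of the second, and 130 (18.4%) were lower there. Of 639 lower genes 274 were also lower, 42.9% of the first and 20.2% of the 1357 of the second, and 40 (6.26%) were higher. The experiments differ in transgene, age and sex as well: Xist was at 1712 and 1856 CPM in the Nes-GFP brain NSC samples and at 1714 and 1772 CPM in the Nes-GFP lung pNSC samples, and at mean levels of 0.277 and 0.443 CPM in Sox2-GFP brain NSCs and lung pNSCs, so these cannot be told apart.

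**Figure D5:**
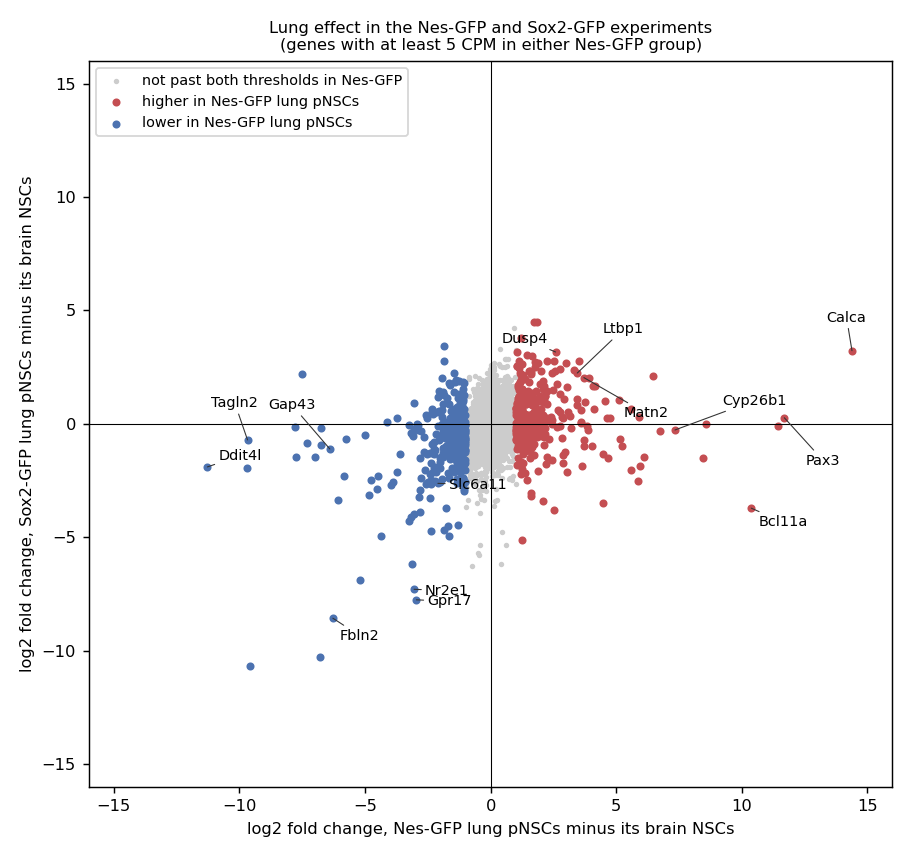
Log2 fold change, lung pNSC minus brain NSC, in the Nes-GFP lines (x) against that in the Sox2-GFP lines (y) for genes with a mean of at least 5 CPM in either Nes-GFP group. Nr2e1, Fbln2 and Ltbp1 lie on the same side of 0 in both, while Pax3, Cyp26b1, Tagln2 and Gap43 lie far out along x and nearer to 0 on y, Gap43 at -1.11 and Tagln2 at -0.71; Calca lies farthest to the right, above 0 on y.

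Of the 1346 genes called in the Nes-GFP lines and tested in both experiments, 32.7% were called in the same direction in the Sox2-GFP lines, 12.6% in the opposite one, and 59.2% had a called interaction. The families are read against these shares. Of the 9 called forebrain genes, 6 were called in the same direction and 1 in the opposite one, and 6 had a called interaction. Nr2e1 was at 25.2 ± 0.453 CPM (mean ± s.d., n = 3) in Sox2-GFP brain NSCs and at 0.150 ± 0.155 CPM in Sox2-GFP lung pNSCs. Fbln2 was at 365 ± 1.62 and 0.953 ± 0.0963 CPM. In both the fall was larger in the Sox2-GFP lines, with interactions of 4.27 and 2.31 on the log2 scale. Of 16 called potassium channel genes 10 were called in the same direction, 1 in the opposite one, and 9 had a called interaction. These counts were 6, 1 and 6 of 12 collagens and 4, 0 and 4 of 6 integrins. Of 16 immunoglobulin adhesion genes 6 were called in the same direction, a share near that of all genes, none in the opposite one, and 8 had a called interaction. Itga1 and Itga4, for example, rose in the Sox2-GFP lines by 2.49 and 2.97, and Ltbp1 by 2.24.

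None of the 10 called genes of the Pax, Eya, Dach and sine oculis families was called in the same direction in the Sox2-GFP lines, 5 were called in the opposite one, and all 10 had a called interaction. Pax3 was at 21.1 ± 1.03 CPM in Sox2-GFP brain NSCs and at 25.4 ± 1.62 CPM in Sox2-GFP lung pNSCs, and it was at 0 in both tail pNSC samples of the Nes-GFP experiment, as in the Nes-GFP brain NSCs. Of the 24 called protocadherins 4 were called in the same direction, 7 in the opposite one, and 20 had a called interaction. Of the 5 called midbrain and hindbrain genes 1 was called in the same direction, 1 in the opposite one, and 3 had a called interaction. These counts were 3, 1 and 7 of 11 lung and trunk factors, 1, 2 and 7 of 7 retinoic acid genes, and 3, 0 and 2 of 6 Hox genes. Bcl11a, Igf2bp2 and Igf2bp3, which rose in the Nes-GFP lines, fell in the Sox2-GFP lines (-3.72, -3.40 and -3.82). Cyp26b1 was at 13.8 ± 0.513 and 11.4 ± 0.845 CPM in Sox2-GFP brain NSCs and lung pNSCs, with an interaction of 7.64. Sparcl1 and Mmp14 went the opposite way in the Sox2-GFP lines (-1.72 and -1.84). Calca rose there too, from 1.71 ± 0.205 to 16.2 ± 1.39 CPM, by less than in the Nes-GFP lines (adjusted p of the interaction 1.19e-29). Tagln2 was at 96.2 ± 3.73 and 58.9 ± 1.36 CPM and Gap43 at 61.5 ± 2.95 and 28.4 ± 1.08 CPM, so that neither was near 0 in the Sox2-GFP lung pNSCs, and Gap43 was called lower there too (-1.11).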

How the data were processed

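RNA was measured in 2 Nes-GFP lung pNSC and 2 Nes-GFP brain NSC samples, grouped by their titles. Per the labels and the study's methods, the authors selected poly-A RNA, prepared NEBNext Ultra libraries, sequenced single-end reads on a NextSeq500, aligned them with HISAT2 to GRCm38 and deposited raw counts of reads per gene made with htseq-count, with Cufflinks also named. Strand setting, counting mode and annotation release are not given in the sources used here, so reads of overlapping genes may be mixed. The deposited counts were used unchanged, for 28244 genes.

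Genes with few reads were removed by filterByExpr (10 counts in a sample, 15 in total) over the 5 Nes-GFP groups, scaled by TMM and tested with edgeR 4.0.16 (glmQLFit, glmQLFTest) in R 4.3.3 with Benjamini-Hochberg adjustment over all genes tested. SEs are the log2 fold change divided by the square root of F. The difference between experiments was the interaction term of a second fit with the Sox2-GFP lung and brain groups. In simulated counts all 200 changed genes were recovered, with 1 false call for the comparison (16209 genes tested) and 0 for the interaction (13777 genes tested). The changes were planted only in well-counted genes and were larger than the limit on the fold. The spread was set by hand, without variation between lines. The simulation therefore checks the fit and cannot give the share of false calls in these data. SEs and standard deviations cover the spread between these samples, and the floor covers counting error only. Library totals ranged from 18009594 to 21402778 counts.

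The 74 gene lists and the members described were chosen with earlier results of these data known. Named genes were list members (values in every sample for called members of at least 5 CPM, up to 6 per list, and cell type markers at any level) and the 15 largest rises and falls with a mean of at least 20 CPM and no overlap between groups. Genes at the floor in one group and Mcph1, Syn3 and genes below 5 CPM named in the text were chosen after their values were seen. Gene positions are from the GENCODE annotation of GRCm38 and promoter sequences from RefSeq (GRCm38.p6). Alternatives were DESeq2 1.42.0, other scalings, filters, thresholds and sample sets, a replicate block, and leaving out each sample. Some genes of the lists count in the totals but are not reported here by name.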

Additional observations from a re-analysis of the deposited data

Results flagged for a closer look

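The effect of lung origin differed between the Nes-GFP and the Sox2-GFP lines, by the interaction term of edgeR, for 2371 genes. In the genes below the Nes-GFP lung minus brain log2 difference differed from that of the Sox2-GFP lines by the value given. A positive value means that the difference was more positive in the Nes-GFP lines, and a value for a gene with no read in a group is set by the prior count of the fit and is no bound.

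Among the genes with the largest rises in Nes-GFP lung pNSCs the values were 11.34 for Calca, 11.60 for Pax3 and 10.00 for Mxra7. They were 7.64 for Cyp26b1, 6.25 for Vxn and 4.96 for Afap1l2. Irx1 differed by 4.46, Arpp21 by 4.50, Angpt2 by 4.09, Nmral1 by 3.46, Ank3 by 2.79 and Parm1 by 1.92. The pseudogenes Rpl3-ps1 and Pcna-ps2, whose reads may belong to their parent genes, differed by 4.15 and 2.49.

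Among the largest falls the values were -9.39 for Ddit4l, -8.95 for Tagln2 and -6.27 for Zcchc12. They were -6.57 for Vcp-rs, a copy of another gene, -5.51 for Cd109, -5.27 for Gap43 and -5.04 for B3gnt5. Myl9 differed by -4.17, Itm2a by -3.53, Npl by -2.24, Acta2 by -2.13, Car8 by -1.70 and Timp3 by -1.65. Fbln2 had the opposite sign, 2.31, since it fell further in the Sox2-GFP lines. Transgene, age at derivation and sex differed between the experiments as well, and cannot be told apart.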

How the results depend on the processing

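Among the named genes that were called, none changed direction under the alternatives run. Of those not called, Xist (-0.0896 to 0.0228), Sox10 (-3.57 to 0.53) and Syn3 (-0.196 to 1.0009) changed sign in log2 fold change with 1 sample left out. Sfrp1, Cnn2, Rpl9-ps6 and Kcnj10, all close to a log2 fold change of 1, lost the call in the largest number of settings. The count of 1476 genes (773 higher, 703 lower) became 842 (447 and 395) with a mean count of at least 100, 6835 (3177 and 3658) with no limit on the fold change and 632 (346 and 286) with log2 fold changes of 2 or more in size. Under the same 3 settings the 2371 genes whose lung minus brain difference differed between experiments became 1267, 8992 and 914, and the 2283 of the Sox2-GFP lines became 1082, 10335 and 787. With each sample left out in turn the counts were 1319 to 1356, 692 to 717 higher and 617 to 659 lower, 2312 to 2404 for the interaction and 2232 to 2263 for the Sox2-GFP lines. DESeq2 gave 692 higher and 581 lower. Counts of the 74 lists moved by over 1.5 times in 5 to 8 lists with a Nes-GFP sample left out and in 5 with DESeq2. These were lists with at most 2 calls, glycolysis and hypoxia (7 to 3 or 4), ependymal genes (5 to 2 or 3), pluripotency and proteoglycan genes (4 to 2 each, without lung pNSC sample 1) and ribosomal protein pseudogenes (10 to 5 with DESeq2 and 6 without lung pNSC sample 2). With the replicate number as a block 748 were higher and 672 lower, no named gene gained or lost its call, and of the 74 lists only the serpins moved by over 1.5 times (2 called to 1). Lung pNSC and brain NSC samples with the same number did not deviate together (r = 0.0104 over 16948 genes). With 2 samples per group that lie close together, this cannot tell whether the numbers pair them. Fits on the 4 samples alone, which test 13199 genes, lowered counts in lists of rarely expressed genes, such as leukocyte markers (2 to 0), complement and pattern recognition (11 to 7), interferon response (11 to 7), chemokine (7 to 4) and ependymal genes (5 to 3). Scalings moved the median of all genes by at most 0.0230. Values near the floor of 3 counts cannot be told from 0 at this depth.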

Other observations

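Imprinted genes, which are expressed from 1 parental allele, were called lower in 5 of 43 tested and higher in 1, and among the 24 with at least 5 CPM in 3 and 0. Mest was at 977 and 950.3 CPM in the brain NSC samples and at 318 and 304 CPM in the lung pNSC samples (log2 fold change -1.63, SE 0.0309). Peg3, a zinc finger gene expressed from the paternal allele, was counted at 541 and 519.7 CPM in brain NSCs and at 245 and 243 CPM in lung pNSCs, and its neighbour Zim1 at 14.7 and 13.6 CPM in brain NSCs against 6.48 and 6.43 CPM in lung pNSCs. All 3 were lower in both lung pNSC samples, and Dlk1, the higher member, held at most 1.30 CPM. Mest overlaps other annotated genes on both strands. In the Sox2-GFP lines Mest went the other way (1.72, interaction -3.33, SE 0.0353).

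Ion channel genes were mostly low in these cells. Of 82 tested potassium channel genes 7 were called higher and 9 lower, with 0 and 3 among the 21 with at least 5 CPM. Kcnj10, Kir4.1 of astrocytes, stood at 206 and 206 CPM in the brain NSC samples and at 101 and 104 CPM in the lung pNSC samples, and Kcnv1, a silent subunit, at 17.8 and 16.04 CPM in brain NSCs and at 1.34 and 1.16 CPM in lung pNSCs. Of 57 sodium and calcium channel genes 3 were higher and 6 lower, and Cacng6, a calcium channel subunit, was at 5.34 and 5.73 CPM in brain NSCs against 0 and 0.0527 CPM in lung pNSCs. Detoxification genes, glutathione transferases and metallothioneins, were called lower in 6 of 38 tested and higher in 1, among them Mt3, a metallothionein of brain, at 260.3 and 269 CPM in the brain NSC samples and at 128 and 123 CPM in the lung pNSC samples and Gstm5 at 48.9 and 44.4 CPM in brain NSCs and at 19.6 and 20.3 CPM in lung pNSCs. Of 366 tested Zfp zinc finger genes 16 were higher and 6 lower, 6.01% called and so under the 8.71% of all genes tested. Among the 281 with at least 5 CPM 2 were higher and 5 lower. Zfp365 was counted at 267 and 259 CPM in brain NSCs against 56.99 and 61.9 CPM in lung pNSCs (log2 fold change -2.15, SE 0.0406), and the Sox2-GFP lines gave 0.52 for the same gene.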
